A study of Mus musculus with 2 samples.

Results

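Glycolysis and the response to low oxygen are described here through 31 genes of the 55357 features in the deposited count matrices. The genes come from a list that was chosen with earlier results of these data known. It holds sugar and lactate transporters, the enzymes from hexokinase to lactate dehydrogenase, regulators of flux, and targets and sensors of the hypoxia response. Lungs of C57 mice bearing metastases of the mouse melanoma line B16F10 were sorted for cells that were alive (7-AAD-negative) and CD45-positive, and these were sequenced one by one. The IRF7 of the tumour cells was wild-type in 1 group and carried the change C435A in the other. IRF7 is a transcription factor of the type I interferon response. There are 2 libraries, 1 per group. Pairs of values are given with the C435A tumour library first and the WT tumour library second. The genotype in the names is that of the tumour cells. The labels give no engineered allele or treatment for the host mice, and the number of animals and tumour cell clones behind a library is not given in the sources used here.

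In glycolysis, glucose enters through transporters of the GLUT family, is trapped by hexokinase, committed by phosphofructokinase and converted to pyruvate with a yield of ATP. Lactate dehydrogenase turns pyruvate into lactate, which leaves through monocarboxylate transporters. When oxygen is scarce, HIF-1α escapes hydroxylation by the EGLN enzymes and switches on most of these genes together with Vegfa, Bnip3 and Pdk1. T cells also turn up glycolysis when they are activated, without lack of oxygen, and tumour macrophages and melanoma cells are known users of the pathway.

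With 1 library per group there was no replicate check on any difference, and no test was made. Brackets hold 95% intervals for counting error only. A cell's class was read from UMIs (unique molecular identifiers, each marking 1 captured RNA molecule) of marker genes, so each class name stands for a gate on RNA. The filters kept 9427 and 9199 cells with 50269416 and 46523362 UMIs, and 24 barcodes occurred in both libraries. The labels call the cells melanoma cells although the sort was for CD45. Only 59 and 107 kept cells passed the melanoma gate, which asked for at least 10 UMIs of Pmel, Mlana, Tyrp1, Dct and Tyr and for 80% of all lineage marker UMIs, and 52.5% and 34.6% of those had a UMI of Ptprc, the gene of CD45. The other gated classes were immune cells, and 1826 and 2100 kept cells met no gate. Levels are in CPM, a gene's UMIs relative to all UMIs of its class, and were compared between classes and libraries, not between genes.

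Promoter sequences are shown for the pair of lactate dehydrogenases, which differed in where they were found. Pdk1 is shown as it was low in activated T cells, and Pgk1, Tpi1 and Bnip3 as they were high in Arg1-positive macrophages. In those macrophages Bnip3 had too few UMIs to be counted past 1.5-fold. Each sequence is the 250 bases before the transcript start, 5′ to 3′ on the gene's strand, from RefSeq on GRCm38.p6. Capitals mark matches to ACGTG or GCGTG on either strand (CACGT and CACGC on the printed strand), the core letters of the hypoxia response element. The palindrome CACGTG holds ACGTG and CACGT and counts as 2 matches.
Ldha (ENSMUSG00000063229), chr7:46845554-46845803, plus strand: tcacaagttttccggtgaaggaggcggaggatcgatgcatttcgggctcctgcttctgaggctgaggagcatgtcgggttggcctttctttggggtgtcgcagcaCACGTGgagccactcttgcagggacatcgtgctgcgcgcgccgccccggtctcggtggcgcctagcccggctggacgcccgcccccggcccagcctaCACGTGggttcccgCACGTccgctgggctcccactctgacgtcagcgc
Ldhb (ENSMUSG00000030246), chr6:142507958-142508207, minus strand: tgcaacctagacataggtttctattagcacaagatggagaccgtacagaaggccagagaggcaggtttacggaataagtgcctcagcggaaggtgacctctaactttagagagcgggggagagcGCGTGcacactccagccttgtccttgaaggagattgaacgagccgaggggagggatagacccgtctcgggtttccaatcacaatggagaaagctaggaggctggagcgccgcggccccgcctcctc
Pgk1 (ENSMUSG00000062070), chrX:106186850-106187099, plus strand: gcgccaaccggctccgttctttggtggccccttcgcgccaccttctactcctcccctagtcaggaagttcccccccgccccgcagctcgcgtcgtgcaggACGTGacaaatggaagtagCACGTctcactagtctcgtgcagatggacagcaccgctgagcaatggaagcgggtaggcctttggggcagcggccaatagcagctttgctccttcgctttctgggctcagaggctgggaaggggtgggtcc
Tpi1 (ENSMUSG00000023456), chr6:124814159-124814408, minus strand: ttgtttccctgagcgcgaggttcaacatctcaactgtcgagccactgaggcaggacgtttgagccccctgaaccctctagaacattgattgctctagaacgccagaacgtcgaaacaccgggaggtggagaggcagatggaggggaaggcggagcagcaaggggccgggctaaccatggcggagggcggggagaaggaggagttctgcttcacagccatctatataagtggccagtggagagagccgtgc
Bnip3 (ENSMUSG00000078566), chr7:138909507-138909756, minus strand: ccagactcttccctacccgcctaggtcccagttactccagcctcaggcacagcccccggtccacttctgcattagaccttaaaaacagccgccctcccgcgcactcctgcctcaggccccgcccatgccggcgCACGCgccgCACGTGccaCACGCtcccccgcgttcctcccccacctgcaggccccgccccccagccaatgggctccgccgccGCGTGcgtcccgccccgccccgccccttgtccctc
Pdk1 (ENSMUSG00000006494), chr2:71872974-71873223, plus strand: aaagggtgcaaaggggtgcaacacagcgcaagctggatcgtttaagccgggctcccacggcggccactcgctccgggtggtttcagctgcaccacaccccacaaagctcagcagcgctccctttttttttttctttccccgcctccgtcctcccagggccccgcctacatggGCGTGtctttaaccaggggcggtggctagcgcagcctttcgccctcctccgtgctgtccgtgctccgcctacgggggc
The Ldha and Bnip3 windows held 5 matches each, Pgk1 held 2, Ldhb and Pdk1 held 1 each, and Tpi1 held none. In GENCODE M21 the genes Tpi1 and Bnip3 begin inside their windows, at 124814296 and 138909519. Ldha begins before its window, at 46841475. Bases before those starts were partly or wholly outside the windows. For Ldha the window of the first listed start is shown, and that of the second held 1 match. The bases right after the first start were in no GENCODE M21 transcript of Ldha, so this start is RefSeq's alone. For Pdk1 the first is shown too, and the second held 0. Pgam1, Eno1 and Mif were also high in Arg1-positive macrophages and are not shown. Pgam1 held 3 matches, the Eno1 windows 1, 2 and 2, and Mif 0. The windows of Vegfa, which like Bnip3 was not counted there, held 0 and 2. Promoter windows were found for 29 of the 31 genes. Of these genes, 26 had a match in at least 1 window (89.7%), against 41.5% of all 27025 genes in the table. By window the figures were 34 of 43 (79.1%) and 38.6% of 32851. At least 3 matches were held by 20.9% of the genes' windows and 6.58% of all windows. These are counts of letters, not of bound sites.

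Melanoma cells had by far the highest summed level of the 31 genes in both libraries, and C1q macrophages were next in both. The sum was 24738.5 CPM [24524.9, 24953.5] and 25307 CPM [25162.2, 25452.4] in melanoma cells. It was 6862 and 7954 CPM in macrophages gated by C1qa, C1qb and C1qc, 4321 and 5794 CPM in alveolar macrophages, and 4702 and 4941 CPM in neutrophils. Cycling T cells, with 5530 and 5401 CPM, stood near neutrophils.

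At the low end were naive T cells (2672 and 2860 CPM), NK cells (2326 and 2547 CPM) and dendritic cells (2234 and 2708 CPM). Plasma cells had 2853 and 1910 CPM in a total in which 50.97% and 39.96% of UMIs were left without mitochondrial, ribosomal protein and immunoglobulin genes, and against that reduced total 5597 and 4780 CPM. Effector T cells (3471 and 3343 CPM), B cells (3194 and 2936 CPM) and monocytes (3900 and 4197 CPM) lay between. The order of the low classes was not the same in the libraries, and neighbours such as naive and other T cells (2624 and 2809 CPM) had overlapping intervals in each library. Gapdh, the dehydrogenase in the middle of the pathway, led the sum in every class. With each cell thinned to 1000 UMIs, which makes depth equal, the median cell held 20 and 24 UMIs of the set in melanoma cells, 5 and 4 in cycling T cells and 2 and 3 in naive T cells.

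**Figure D1:**
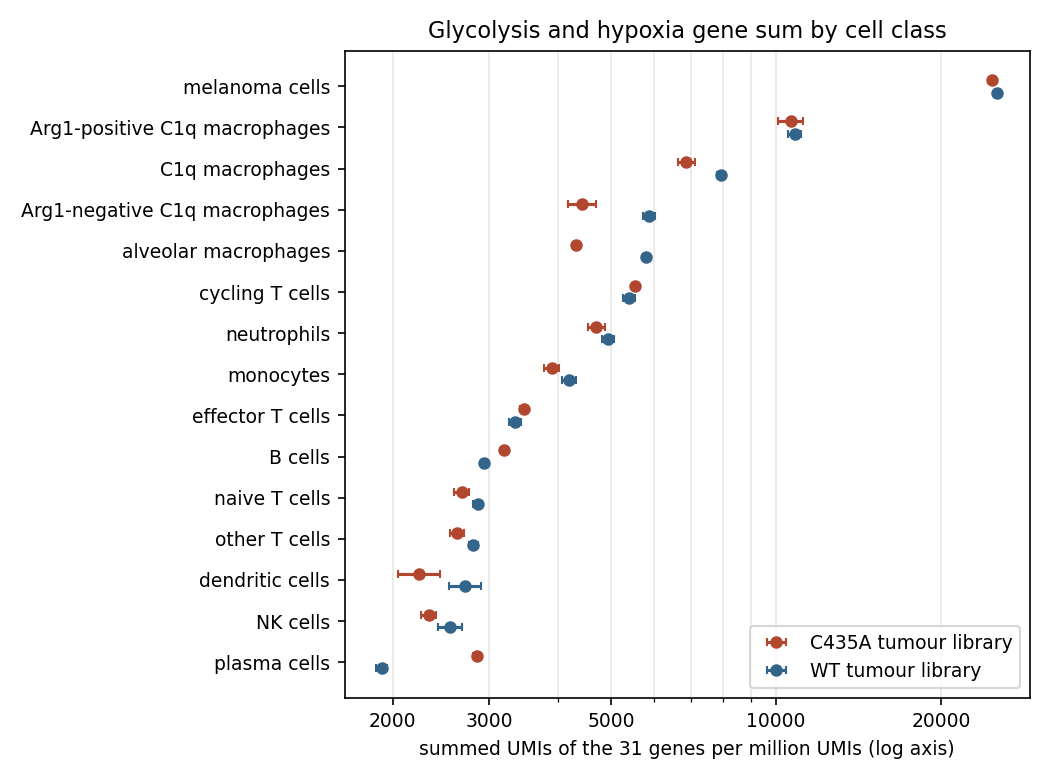
Summed level of the 31 genes in CPM (log axis) in each gated class, with 1 point per library and bars for the 95% Poisson interval. Melanoma cells stand at 24738.5 and 25307 CPM and Arg1-positive C1q macrophages at 10643.5 and 10821.9 CPM, and the libraries stand apart in alveolar macrophages.

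Of the 31 genes, 22 had their highest level in melanoma cells in both libraries, 1 (Adm) in the C435A tumour library alone and 8 in neither. Among the enzymes, Pgk1, the first ATP-yielding kinase, had 2682 and 3032 CPM in melanoma cells against 381.4 and 404.7 CPM in C1q macrophages, the next class. Ldhb, the lactate dehydrogenase subunit that favours conversion of lactate to pyruvate, had 660.6 and 687.5 CPM in melanoma cells, 10.7 and 6.27 times the level of the next class, dendritic cells. Bnip3, a HIF target that acts in the removal of mitochondria, had 307.6 and 287 CPM in melanoma cells and at most 35.27 and 30.95 CPM in an immune class.

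Each of the 8 others had an immune class as its leader. Slc2a3, the glucose transporter GLUT3, was highest in neutrophils with 458.1 CPM [408.2, 512.4] and 357.3 CPM [323.2, 393.9], where melanoma cells had 12.05 and 10.38 CPM. Slc16a3, the lactate exporter MCT4, was also highest there, with 248.5 and 261.5 CPM. Neutrophils were further the highest class for Pfkfb4, a kinase and phosphatase that sets fructose 2,6-bisphosphate (97.3 and 96.63 CPM). Egln3, a HIF hydroxylase, was low everywhere and reached 50 UMIs in no class. Its level was also highest in neutrophils (8.981 and 15.96 CPM), but the next immune classes stood at 6.057 and 6.261 CPM. That lead rests on few UMIs. Neutrophils therefore combined high levels of the transporters at both ends of the pathway.

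Pdk1, a kinase that inhibits pyruvate dehydrogenase, was highest in naive T cells, with 163.1 CPM [143.5, 184.6] and 161.5 CPM [148.6, 175.2]. The next class outside T cells was melanoma cells, with 47.25 and 48.01 CPM. Aldoc, an aldolase, was highest in alveolar macrophages (60.66 and 99.77 CPM), above melanoma cells (42.43 and 70.5 CPM). Pfkfb3, the strongly activating member of the PFKFB enzymes, led in C1q macrophages in the C435A tumour library (52.91 CPM) and in dendritic cells in the WT tumour library (75.13 CPM). Ndrg1, a stress gene induced by hypoxia, led in monocytes (71.21 CPM) and neutrophils (52.3 CPM). Hif1a, the gene of HIF-1α, was among the 22 led by melanoma cells (218.9 and 215.6 CPM), but only 1.31 and 1.29 times above C1q macrophages, and was lowest in plasma cells (16.55 and 20.59 CPM).

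Where 2 or 3 genes encode the same step, the classes counted different ones. Slc2a3 made up 89.2% [85.4, 92.3] and 88.4% [85.1, 91.2] of Slc2a1 and Slc2a3 UMIs in neutrophils, 64.2% and 64% in naive T cells, but 5.88% and 4.92% in C1q macrophages and 12% and 12.3% in melanoma cells. Hk2, the inducible hexokinase, held 83.3% and 86.3% of Hk1 and Hk2 UMIs in alveolar macrophages and 16.2% and 10.7% in naive T cells. So T cells counted mainly Slc2a3 with Hk1, and macrophages mainly Slc2a1 with Hk2.

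Ldha, the subunit that favours lactate formation, held 72.8% [71.5, 74] and 73.9% [73.1, 74.7] of lactate dehydrogenase UMIs in melanoma cells. In naive T cells its share was 91% [88.4, 93.2] and 90.9% [89.2, 92.4], and in effector T cells 98.8% and 98.4%. Slc16a3 held 100% and 98.3% of Slc16a1 and Slc16a3 UMIs in neutrophils and 15% and 13.1% in naive T cells, which mainly counted Slc16a1 (MCT1). The share of Pfkp among Pfkl, Pfkm and Pfkp differed between the libraries in cycling T cells, at 84.1% [82.5, 85.6] and 63.6% [55.5, 71.2].

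**Figure D2:**
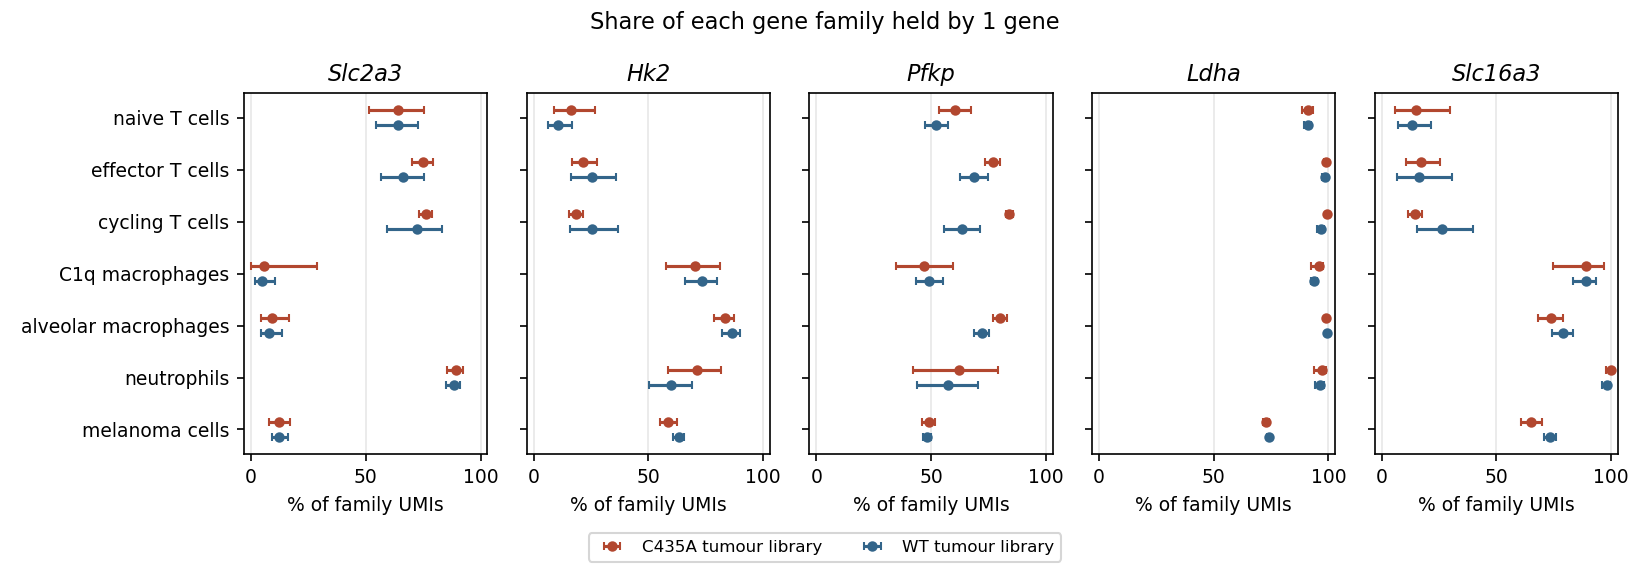
Share (%) of a family's UMIs that belong to 1 gene, by class and library, with exact 95% binomial intervals: Slc2a3 of Slc2a1 and Slc2a3, Hk2 of Hk1 and Hk2, Pfkp of the 3 phosphofructokinases, Ldha of Ldha and Ldhb, and Slc16a3 of Slc16a1 and Slc16a3. T cells and macrophages lie apart for Slc2a3, Hk2 and Slc16a3, and melanoma cells have the lowest Ldha share of the 7 classes plotted.

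T cells were divided by marker UMIs into cycling (proliferation genes such as Mki67 and Top2a), effector (Ccl5, Nkg7, granzymes and others) and naive cells (Ccr7, Lef1, Tcf7, Dapl1 and others), with 1066 and 109, 935 and 479, and 596 and 1333 cells. A gene was counted with at least 50 UMIs over the classes compared in each library, and called past 1.5-fold in both libraries in the same direction. From naive to effector cells, 6 of 21 counted genes were higher and 2 lower, against 6.86% of 7524 features higher and 3.68% lower. The summed level was higher by 0.38 [0.33, 0.43] and 0.22 [0.18, 0.27] on the log2 scale.

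Among the genes that were higher, Slc2a3 had 72.34 and 43.79 CPM in effector cells and 28.05 and 19.84 CPM in naive cells (log2 ratio 1.37 [0.90, 1.87] and 1.14 [0.65, 1.64]). Pfkp was higher by 0.74 and 0.76 and Pgam1, the phosphoglycerate mutase, by 0.68 and 0.76 on the log2 scale. Pfkfb3 (1.04 and 1.14), Ero1a (0.60 [0.01, 1.22] and 0.73 [0.14, 1.31]) and Slc2a1 (0.62 [-0.05, 1.33] and 0.99 [0.30, 1.68]) were also past 1.5-fold. The interval of Slc2a1 held 0 in the C435A tumour library. Pfkfb3 rests on few UMIs and stood at -1.10 in the WT tumour library once cells were thinned to 1000 UMIs. The abundant enzymes were under 1.5-fold in at least 1 library, with Gapdh at 0.88 and 0.51, Ldha at 0.42 and 0.20 and Pkm at 0.08 and -0.09. With at least 200 UMIs asked for, 2 genes were higher and 1 lower, and the share of all features was not computed.

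Ldhb and Pdk1 were the genes lower in effector cells. Ldhb had 5.246 and 6.167 CPM in effector cells and 33.27 and 33.53 CPM in naive cells (-2.67 [-3.51, -1.88] and -2.44 [-3.54, -1.51]). Pdk1 had 33.68 and 64.76 CPM against 163.1 and 161.5 CPM (-2.28 [-2.60, -1.96] and -1.32 [-1.63, -1.02]). Melanoma RNA in the droplets, scaled by the melanoma marker UMIs of each class, would amount to 1.22 and 2.75 CPM of Ldhb in naive and 1.14 and 2.22 CPM in effector T cells, and its part in the measured levels was not tested. Both genes kept their direction in cells with CD8 UMIs alone and in cells with Cd4 UMIs alone. For Ldhb the CD4-only ratio in the WT tumour library was -1.19, from 50 effector cells.

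Cycling T cells differed most from naive cells, and the enzymes from triose phosphate isomerase to lactate dehydrogenase, apart from Eno1, were high. Of 20 counted genes, 9 were higher and 1 lower, where 18.2% of 7677 features were higher and 14.5% lower, so the state moved many genes. The median log2 ratio of the counted genes was 0.71 and that of all counted features 0.03. The summed ratio was 1.05 [1.00, 1.10] and 0.92 [0.87, 0.96].

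Gapdh led, with 1704 and 1590 CPM in cycling cells against 482.8 and 508.5 CPM in naive cells (1.82 [1.71, 1.93] and 1.64 [1.55, 1.74]). Pgam1 (1.67 and 1.56), Tpi1, the triose phosphate isomerase (1.64 and 1.49), Pgk1 (1.45 and 1.36), Ldha (1.15 and 0.98), Mif, a cytokine often induced by HIF (1.08 and 0.98), and Pkm, the pyruvate kinase (0.89 and 0.83), followed. The transporters Slc2a3 (1.42 and 0.93) and Slc16a1 (1.11 and 0.66) were the remaining 2. For all 9, the interval lay above 0 in each library.

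Pdk1 was the gene lower in cycling cells in both libraries, with 15.24 and 36.94 CPM against 163.1 and 161.5 CPM (-3.42 [-3.72, -3.12] and -2.13 [-2.62, -1.67]). Thinned to 1000 UMIs, 1.51% and 2.75% of cycling cells had a Pdk1 UMI against 16.8% and 14.5% of naive cells (12.8%, 24.8%, 34.1% and 31.8% unthinned), while in NK cells, with medians of 2043 and 1967 UMIs, 0.822% and 0% of thinned cells had one (1.71% and 0.358% unthinned). The 0 of 271 cells allows up to 1.35% at the upper 95% bound. Some genes went apart in the libraries. Ldhb stood at -2.91 [-3.52, -2.30] in the C435A tumour library and at -0.57 [-1.26, 0.06] in the WT tumour library. Eno1 stood at 0.95 [0.71, 1.21] and 0.15 [-0.13, 0.43], Aldoa at 0.82 and 0.18, while Hif1a stood at -0.12 [-0.36, 0.12] and 0.63 [0.33, 0.93].

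**Figure D3:**
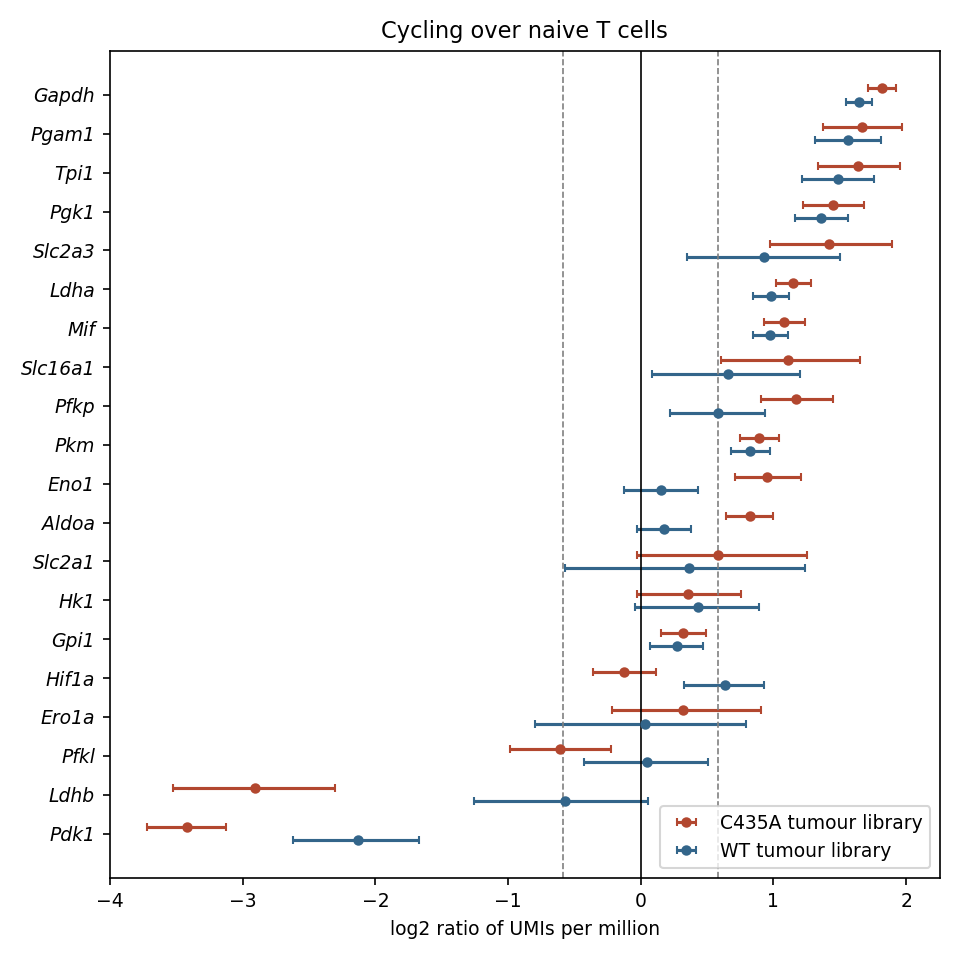
Log2 ratio of CPM in cycling over naive T cells for the 20 counted genes, with 1 point per library and 95% counting intervals. Dashed lines mark 1.5-fold. Gapdh, Pgam1, Tpi1 and Pgk1 lie above 1.3 in both libraries and Pdk1 lies below -2.

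Cycling cells were also above effector cells, with summed ratios of 0.67 [0.64, 0.70] and 0.69 [0.64, 0.75]. Of 19 counted genes 8 were higher and 1 lower, with 11.4% of 6339 features higher and 8.27% lower. The 8 were Tpi1 (1.66 and 1.09), Gapdh (0.94 and 1.13), Pgk1 (0.89 and 1.31), Pgam1, Slc16a1, Mif, Pkm and Ldha, and the lower one was again Pdk1 (-1.14 and -0.81). In the WT tumour library Tpi1 and Mif stood at -0.06 and -0.12 with cells thinned to 1000 UMIs, and Pdk1 at 0.12 in CD4-only cells. Cycling cells were deeper, with medians of 8455 and 8566 UMIs against 2450.5 and 2557 in naive cells, and held more CD8 cells: 71.2% and 45% had CD8 UMIs without Cd4, against 25.3% and 26.3% of naive cells. Among CD8-only cells the summed cycling over naive ratio was 1.31 and 1.10, among CD4-only cells 0.83 and 0.76, and with cells thinned to 1000 UMIs 0.98 and 0.65.

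Connected genes were read from 34 other sugar pathway genes and 38 other hypoxia pathway genes. In cycling over naive cells, 3 of 17 counted sugar genes were higher and 2 lower: Tkt, transketolase of the pentose phosphate pathway (1.63 and 1.20), Pdk3 (1.53 and 1.36) and Rpia (0.95 and 1.27), against Adpgk (-1.28 and -1.91) and Bpgm (-0.68 and -0.96). Pdk3 is a paralog of Pdk1 and went the other way, from 13.05 and 10.9 CPM to 37.56 and 27.93 CPM. Among 21 counted hypoxia genes, 3 were higher (Bhlhe40 at 2.86 and 2.82, Rora at 0.71 and 2.22, and Fam162a at 0.72 and 0.73) and 5 lower (Bnip3l, P4ha1, Kdm3a, Ddit4 and Gbe1, between -1.36 and -0.64). Over all counted features 18.2% were higher and 14.5% lower, and the counts of the sugar list and the higher genes of the hypoxia list lay near those shares. The median log2 ratios were 0.41 for the sugar list, 0.02 for the hypoxia list and 0.03 for all counted features. In effector over naive cells, the sugar list had 2 of 16 higher (Pgd and Pdk3) and 0 lower, and the hypoxia list 2 of 20 higher (Bhlhe40 at 3.65 and 3.20, and Rora) and 0 lower, where 6.86% of features were higher and 3.68% lower. Counts this small set neither list apart.

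Macrophages of the C1q gate with at least 2 UMIs of Arg1, which encodes arginase 1, were few, 9 and 29 cells, and were set beside 37 and 70 cells with none. Most of the enzymes were higher in them. The sum was 10643.5 and 10821.9 CPM in Arg1-positive and 4429 and 5866 CPM in Arg1-negative cells (1.26 [1.15, 1.38] and 0.88 [0.83, 0.94]). Of 11 counted genes 9 were higher in both libraries and 0 lower, where 3.7% of 1190 features were higher and 3.53% lower.

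Pgk1 had 745.2 and 657.7 CPM against 174.1 and 251.5 CPM (2.10 [1.58, 2.63] and 1.39 [1.14, 1.63]). Tpi1 (1.57 and 1.27), Ldha (1.39 and 1.21), Eno1 (1.53 and 1.01), Mif (1.13 and 1.29), Pgam1 (1.29 and 0.97), Gapdh (1.11 and 0.72), Gpi1 (0.99 and 0.60) and Aldoa (0.86 and 0.72) made up the rest. The counted genes that were not past 1.5-fold in both libraries were Pkm (1.13 and 0.49) and Hif1a (1.71 and 0.34 [-0.07, 0.74]). Every enzyme from aldolase A to lactate dehydrogenase A was thus past 1.5-fold in both libraries, apart from Pkm in the WT tumour library. Counts followed the filter: 20 genes were higher and 1 lower with 1 UMI asked for, and 4 were higher with 200. A count of 0 was set to 3 UMIs, so Pfkm, with 0 and 1 UMIs against 1 and 1, was among the 20. Shares of all features were not computed at these filters.

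The other genes of the set had under 50 UMIs in a library and were not counted. Vegfa, the endothelial growth factor, had 150.5 and 90.23 CPM in Arg1-positive cells, from 20 and 45 UMIs, and 7.571 and 8.455 CPM in Arg1-negative cells, from 2 and 8 UMIs (4.31 [2.27, 7.46] and 3.42 [2.32, 4.71]). Slc16a3 (2.31 [0.87, 3.97] and 1.94 [1.36, 2.54]), Ero1a, an oxidase of the endoplasmic reticulum (2.92 [1.45, 4.69] and 1.31 [0.58, 2.06]), Bnip3 (2.13 [0.49, 4.01] and 1.87 [0.93, 2.88]), Slc2a1 (3.45 [1.26, 6.67] and 0.96 [0.30, 1.62]) and Hk2 (1.43 [0.46, 2.42] and 0.81 [0.21, 1.40]) also had intervals above 0 in both libraries. Pfkfb3 (-0.77 and -0.43), Ldhb (-2.01 and -0.73), Pfkfb4 (-1.01 and -0.009) and Slc16a1 (-0.0083 and -0.81) lay below 0 in both with intervals that held it. Hmox1, haem oxygenase, was the 1 gene past 1.5-fold among the 4 counted of the other hypoxia list (1.40 and 1.03), and none of 6 counted other sugar genes was.

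Single cells weighed on these values: the largest held 23.3% and 8.71% of the set's UMIs in Arg1-positive cells, and 57.9% of the Ero1a UMIs of the C435A tumour library came from 1 cell. Without the top cell of each class the summed ratio was 1.24 and 0.86. Arg1-positive cells were deeper (medians of 17618 and 16554 UMIs against 5419 and 11578), and had more T cell marker UMIs (256 and 273 CPM against 148 and 84.6 CPM). CD8 UMIs without Cd4 were found in 22.2% and 20.7% of them against 2.7% and 2.86%. Melanoma marker UMIs were at 97.9 and 46.1 CPM against 64.4 and 61.3 CPM, a level at which melanoma RNA would carry 145 and 66.3 CPM of the set. C1q markers stood at 15777.1 and 12550.3 CPM against 16205.4 and 12850.2 CPM. The part of depth and T cell RNA in the result was not tested. With cells thinned to 1000 UMIs, the median cell held 10 and 10 UMIs of the set in Arg1-positive and 2 and 5 in Arg1-negative cells.

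**Figure D4:**
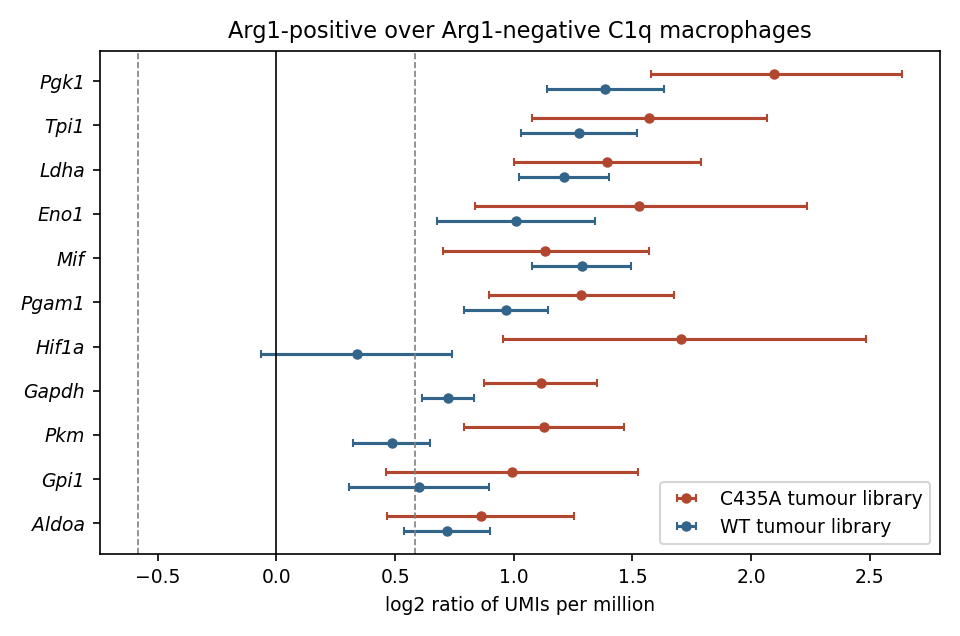
Log2 ratio of CPM in Arg1-positive over Arg1-negative C1q macrophages for the 11 counted genes, with 95% counting intervals for each library. All points lie above 0, where Hif1a and Pkm are the genes under the line in the WT tumour library, and 9 genes are past the dashed 1.5-fold line in both libraries.

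Between the libraries, the sum over all kept cells was lower in the C435A tumour library, 5040 against 6323 CPM (log2 ratio of C435A over WT -0.33 [-0.34, -0.32]). Of 31 genes 1 was higher and 10 were lower past 1.5-fold, with 6.79% of 15309 features higher and 14.5% lower. Melanoma cells, 59 and 107 in number, held 51305 of 253336 and 117019 of 294178 UMIs of the set. In kept cells other than melanoma cells the sum was 4192 and 4228 CPM (-0.01 [-0.02, -0.003]), and 2 genes were higher and 7 lower, with 7.63% of 14740 features higher and 11.6% lower. Sums over all cells move with the mix of classes, and cycling T cells were 11.31% and 1.185% of kept cells.

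Within the 7 main classes few of the genes differed past 1.5-fold. In naive T cells 0 of 21 counted genes were higher and 0 lower, with 4.17% of 7810 features higher and 4.01% lower. In effector T cells 1 of 21 was higher and 3 were lower, with 7.86% of 7875 features higher and 9.38% lower. Slc2a3 was the higher one, at 72.34 and 43.79 CPM (0.72 [0.34, 1.12]). Mif had 264.5 and 429.9 CPM (-0.70 [-0.84, -0.56]), Pdk1 33.68 and 64.76 CPM (-0.94 [-1.33, -0.55]) and Tpi1 59.08 and 90.66 CPM (-0.62 [-0.93, -0.30]). Effector cells with CD8 UMIs alone made up 59.3% and 69.3% of the class. In CD4-only effector cells, 232 and 50 in number, Mif stood at 0.28 and Pdk1 at 0.24, so their direction held in CD8-only cells (-0.78 and -1.06) and not there.

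In cycling T cells the summed ratio was 0.03 [-0.004, 0.07], an interval that held 0, but it moved beyond that interval in both directions under other settings. Of 23 counted genes 4 were higher and 4 lower, with 8.27% of 9203 features higher and 13.1% lower. The lower count lay near the share of all features, and counts this small do not set the genes apart. Pfkp had 179 CPM [170.8, 187.4] and 88.29 CPM [71.68, 107.6], a ratio of 1.02 [0.73, 1.33]. Slc2a3 had 74.83 and 37.84 CPM (0.98 [0.54, 1.47]). Pfkfb3 (1.38 [0.11, 3.03], from 5 UMIs in the WT tumour library) and Slc2a1 (0.70 [-0.03, 1.53]) were the others. With at least 200 UMIs asked for, 3 were higher and 1 lower, and the share of all features was not computed.

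Ldhb was the lowest of the set in cycling T cells, at 4.425 CPM [3.228, 5.921] from 45 UMIs and 22.52 CPM [14.58, 33.25] from 25 UMIs (-2.35 [-3.08, -1.58]). Carried melanoma RNA would amount to 0.538 and 2.25 CPM. Pdk1 had 15.24 and 36.94 CPM (-1.28 [-1.78, -0.74]), Pfkl 31.17 and 47.75 CPM (-0.62 [-1.04, -0.17]), and Slc16a3 stood at -0.75 [-1.55, 0.16]. The direction of Pfkl turned with cells thinned to 1000 UMIs, to 0.26. CD8-only cells were 71.2% and 45% and CD4-only cells 19.1% and 38.5% of the class. In CD8-only cells the ratios of Pfkp, Slc2a3, Ldhb and Pdk1 were 0.95, 0.51, -2.97 and -1.51, and in CD4-only cells 0.80, 1.41, -1.40 and -0.36. So all 4 kept their direction in each, with Slc2a3 under 1.5-fold in CD8-only and Pdk1 in CD4-only cells. The 109 cells of the WT tumour library limited the precision. With TMM scaling in place of totals, 7 were higher and 3 lower, and the share of all features under it was not computed.

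Alveolar macrophages had a lower sum in the C435A tumour library, with 4321 CPM [4263, 4379] and 5794 CPM [5729, 5859] (-0.42 [-0.45, -0.40]). The difference ran through the pathway rather than resting on a few genes, and 2 of 24 counted genes were lower past 1.5-fold and 0 higher, with 9.26% of 9449 features higher and 3.41% lower. The median log2 ratio was -0.35 for the counted genes and 0.13 for the features. Pgam1 had 223.7 and 409.9 CPM (-0.87 [-0.98, -0.77]) and Aldoc 60.66 and 99.77 CPM (-0.72 [-0.93, -0.51]).

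Under 1.5-fold, but with intervals below 0, were Mif (-0.57), Eno1 (-0.55), Tpi1 (-0.54), Pfkl (-0.51), Slc2a1 (-0.51), Pkm (-0.50), Ldha (-0.50), Gapdh (-0.45), Pgk1 (-0.44), Aldoa (-0.37) and Hif1a (-0.33). Intervals above 0 were found for Pdk1 (0.37), Pfkfb4 (0.28) and Pfkp (0.18). Under TMM scaling, whose log2 factor here was 0.14, 11 genes were lower and 0 higher. That factor shifts every feature alike, and the share of all features under it was not computed. Alveolar cells of the C435A tumour library were shallower, with medians of 7053 and 11320 UMIs, and thinned to 1000 UMIs the median cell held 4 and 5 UMIs of the set and the ratio was -0.52. Proliferation markers were at 679 and 665 CPM and the alveolar markers themselves at 6489.4 and 5719.2 CPM. Markers of other cells moved with the difference: C1q markers were at 11.1 and 27.3 CPM, monocyte markers at 251 and 349 CPM, neutrophil markers at 68.7 and 84.4 CPM and melanoma markers at 31 and 58.8 CPM, while T cell markers were at 63.9 and 37.7 CPM. Melanoma RNA at that level would carry 46.1 and 84.5 CPM of the set. The part of these cells and of depth in the difference was not tested. Of the other hypoxia genes, Epas1, which encodes HIF-2α, had 13.5 and 34.52 CPM (-1.35), and Arg1 4.837 and 28.45 CPM (-2.56), the 2 lower of 26 counted, with 0 higher. Of 22 counted other sugar genes 1 was higher and 1 lower.

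C1q macrophages, 49 and 108 cells, had a summed ratio of -0.21 [-0.27, -0.16], which was -0.50 with cells weighted alike and -0.44 thinned to 1000 UMIs. In this class the calls were few, with 2 of 23 counted genes higher and 2 lower, against 10.5% of 5400 features higher and 8.7% lower. Slc2a1 had 35.27 and 67.74 CPM (-0.94 [-1.80, -0.18]). Ldhb (-0.73), Hk1 (0.70) and Pdk1 (0.64) had intervals that held 0. The class mixed Arg1-positive and Arg1-negative cells: the sum of Arg1-positive cells was nearly the same in the libraries (10643.5 and 10821.9 CPM) and that of Arg1-negative cells was not (4429 and 5866 CPM). With a gate purity of 95% only 6 and 6 cells were left, and the summed ratio was 0.02.

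In neutrophils, where the sum stood at -0.07 [-0.14, -0.01], 0 of 22 counted genes were higher and 1 lower, with 6.77% of 3632 features higher and 5.09% lower. The lower one was Mif, at 38.92 and 60.28 CPM from 26 and 68 UMIs (-0.63 [-1.34, 0.04]). Slc2a3 was higher by 0.36 [0.14, 0.58], under 1.5-fold.

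Melanoma cells, the cells that carry the genotype, had a summed ratio of -0.03 [-0.05, -0.02]. Of 28 counted genes 2 were higher and 1 lower, with 4.34% of 9257 features higher and 4.54% lower. Ero1a had 500 CPM [470.1, 531.4] and 273.8 CPM [258.9, 289.3] (0.87 [0.75, 0.99]), and Ndrg1 43.88 and 19.03 CPM (1.21 [0.77, 1.64]). Aldoc had 42.43 and 70.5 CPM (-0.73 [-1.09, -0.39]). The abundant enzymes were under 1.5-fold and went both ways. Aldoa had 2017 CPM in each library, and Gapdh (5476 and 5094 CPM, 0.10 [0.07, 0.14]) and Eno1 (732.4 and 659.2 CPM) were higher in the C435A tumour library. Lower there were Pkm (1830 and 2271 CPM), Tpi1 (1979 and 2256 CPM), Pgk1 (2682 and 3032 CPM) and Pgam1 (1746 and 1954 CPM). Ldha (1765 and 1946 CPM) and Gpi1 (810.1 and 871.1 CPM) were lower as well. Pgf, a relative of Vegfa (64.61 and 20.55 CPM, 1.65), and Hmox1 (125.9 and 69.2 CPM, 0.86) were the higher 2 of 27 counted other hypoxia genes, with 0 lower.

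These melanoma values rested on few cells. A single cell gave 38.5% of the Ndrg1 UMIs and 16.8% of the Ero1a UMIs of the C435A tumour library, and without the top cell of each library the ratios were 0.70 and 0.75. Ero1a stood at 0.19 with cells thinned to 1000 UMIs. With every cell weighted alike, both turned negative (-1.37 and -0.83). The summed ratio was -0.36 with cells weighted alike and -0.49 in the 28 and 70 cells with no Ptprc UMI (18921 and 26557.2 CPM). Median depths were 32501 and 46707 UMIs, and CD8 UMIs without Cd4 were found in 27.1% and 12.1% of these cells. What T cell RNA in the same droplets contributed was not tested.

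**Figure D5:**
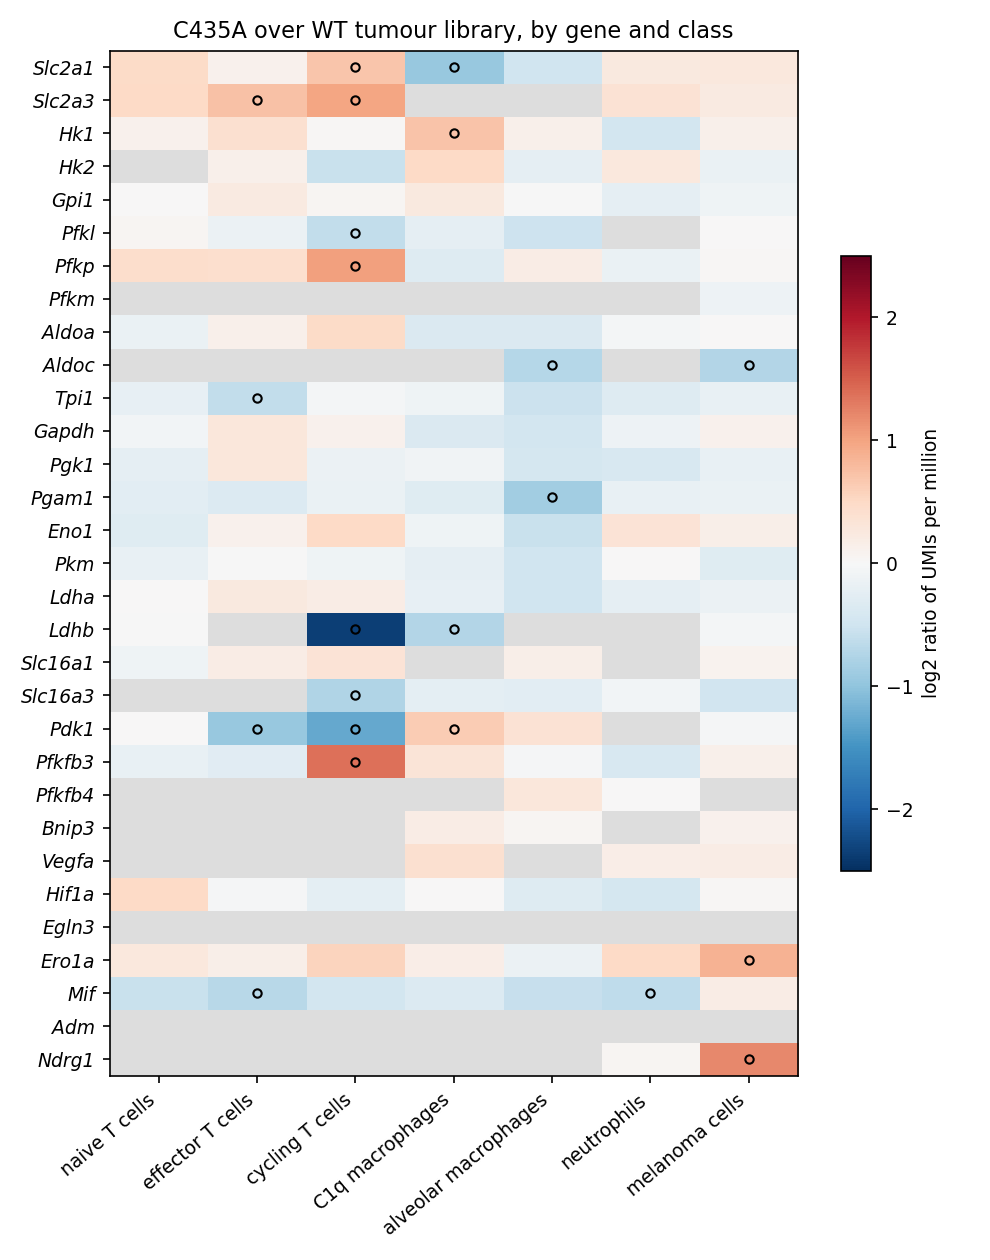
Log2 ratio of CPM, C435A over WT tumour library, for each gene (rows) in the 7 main classes (columns). Grey cells had under 50 UMIs and circles mark ratios past 1.5-fold. Alveolar macrophages show a column of mostly weak negative ratios, and in cycling T cells Ldhb at -2.35 and Pfkfb3 at 1.38 are the lowest and highest ratios plotted.

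The direction between the libraries was followed over 13 classes. All of them come from the same 2 libraries, so the classes are not repeats of one another. No share of all features was computed for these counts of classes. Slc2a3 was above 0 in 8 of 8 classes with at least 50 UMIs, with intervals above 0 in 3 (effector T cells, cycling T cells and neutrophils), and between 0.06 and 0.98. Mif was below 0 in 10 of 13 classes, with intervals below 0 in 7, from -0.76 [-1.09, -0.43] in NK cells to -0.33 in monocytes. It was above 0 in melanoma cells (0.18 [0.13, 0.23]), B cells (0.14) and plasma cells (0.45). Mif is abundant in melanoma cells (2506 and 2215 CPM), and melanoma RNA carried in droplets would add 1.99 to 12.7 CPM to a class. In NK cells, where the levels were 121.4 and 205.8 CPM, that came to 6.24 and 12.7 CPM. Over all kept cells other than melanoma cells Mif was at 354.7 and 355.4 CPM, so the difference within classes was not seen in the mix. Slc16a3 was below 0 in 6 of 6 classes with intervals below 0 in 1, Aldoc in 3 of 3 with 2, and Vegfa above 0 in 3 of 3 with none. Egln3 reached 50 UMIs in no class, Pfkm in melanoma cells (54 and 131 UMIs) and Adm in B cells (18 and 48 UMIs). Several enzymes lay below 0 in about as many classes as Mif: Pgam1 in 11 of 13 (intervals below 0 in 4 and above 0 in 2), Pgk1 in 10 of 13 (5 and 3), Pkm in 10 of 13 (4 and 1) and Tpi1 in 10 of 12 (4 and 1). Slc16a1 was above 0 in 7 of 8 classes, with the interval above 0 in 1. The remaining genes with at least 50 UMIs in more than 1 class had classes on both sides of 0.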

How the data were processed

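Single-cell RNA of 2 libraries was analysed, 1 per group. The deposited count matrices hold UMI counts per feature and barcode that the authors made with Cell Ranger 7.2.0 per the file headers, on GRCm38 per the submitters' processing notes. The labels' protocols name both BD Rhapsody and 10x 3′ V3 capture, and which was used is not settled here. Barcodes were dropped when they had fewer than 200 genes or 500 UMIs, or a mitochondrial share of 20% or more (102 and 157 removed), and the highest Scrublet scores, 0.8% per 1000 barcodes, were removed as doublets (844 and 800), with scanpy 1.11.5. A lineage needed its minimum of marker UMIs and 80% of all lineage marker UMIs. UMIs were summed per class and divided by the class total. Ratios of counts have exact conditional 95% intervals, levels exact Poisson and shares exact binomial ones. The call was 1.5-fold with at least 50 UMIs over both sides. Named genes were those past that fold, ordered by size, with the 31 genes described by role. Software was Python 3.11.15, SciPy 1.17.1 and, for TMM scaling alone, edgeR 4.0.16 in R 4.3.3. The ratio script was tested on simulated data. The genes, gates and lists were chosen with earlier results of these data known. All 31 genes matched GENCODE M21 positions, and 52081 of 55357 feature IDs did.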

Additional observations from a re-analysis of the deposited data

Results flagged for a closer look

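Some genes were past 1.5-fold in opposite directions in different classes between the libraries, and these differences were not tested. Slc2a1 was higher in cycling T cells (0.70 [-0.03, 1.53]) and lower in C1q macrophages (-0.94 [-1.80, -0.18]), which are 1.64 apart on the log2 scale. Pdk1 was higher in C1q macrophages (0.64 [-0.21, 1.44]) and lower in effector T cells (-0.94 [-1.33, -0.55]), 1.58 apart, and lower in cycling T cells (-1.28 [-1.78, -0.74]), 1.92 apart.

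Near-identical copies of 2 of the genes also held UMIs and entered no sum: Eno1b, a copy of Eno1, had 496 over both libraries (138 and 358), and Mif-ps4, a copy of Mif, had 184 (98 and 86). How the counting assigned reads shared by a gene and its copy is not stated by the labels or headers. The 1826 and 2100 cells that met no gate had 4890 and 5267 CPM of the 31 genes.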

How the results depend on the processing

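No paired analysis was possible because each group has 1 library, and for the same reason no library could be left out. The settings without a top cell, without Ptprc UMIs, and by CD8 or Cd4 between T cell states were chosen after seeing the data. Settings that left too few cells, as the 95% purity did for Arg1-positive macrophages, gave no value. Depth limits C1q macrophages, melanoma cells and the cycling T cells of the WT tumour library most, through their few cells. The summed log2 ratio moved beyond its interval as follows, with the reported value in brackets. For naive T cells (-0.10) it was -0.18 at a gate purity of 95%, -0.16 with TMM scaling and -0.0368 in CD4-only cells. For effector T cells (0.05) it was 0.0055 thinned to 1000 UMIs, -0.073 without mitochondrial, ribosomal protein and immunoglobulin UMIs in the total, 0.15 with TMM scaling, -0.0176 without the leading gene, -0.0324 in CD8-only cells and 0.26 in CD4-only cells. For cycling T cells (0.03) it was -0.0404 with doublets kept, 0.0888 at a gate purity of 95%, 0.10 with cells weighted alike, 0.21 thinned to 1000 UMIs, -0.0557 without mitochondrial, ribosomal protein and immunoglobulin UMIs in the total, 0.19 with TMM scaling and 0.0802 without the top cell. For C1q macrophages (-0.21) it was 0.0199 at a gate purity of 95%, -0.50 with cells weighted alike, -0.44 thinned to 1000 UMIs, -0.33 with TMM scaling and -0.27 without the top cell. For alveolar macrophages (-0.42) it was -0.47 at a gate purity of 95%, -0.52 thinned to 1000 UMIs and -0.57 with TMM scaling. For melanoma cells (-0.03) it was -0.009 with doublets kept, -0.36 with cells weighted alike, -0.073 thinned to 1000 UMIs, -0.0584 with TMM scaling, -0.0695 without the leading gene, -0.49 in cells with no Ptprc UMI and -0.0556 without the top cell. For effector T cells over naive T cells in the C435A tumour library (0.38) it was 0.19 without mitochondrial, ribosomal protein and immunoglobulin UMIs in the total, 0.45 with TMM scaling, 0.24 without the leading gene, 0.50 in CD8-only cells and 0.52 in CD4-only cells. For effector T cells over naive T cells in the WT tumour library (0.22) it was 0.12 without mitochondrial, ribosomal protein and immunoglobulin UMIs in the total, 0.12 with TMM scaling, 0.15 without the leading gene and 0.39 in CD8-only cells. For cycling T cells over naive T cells in the C435A tumour library (1.05) it was 1.16 at a gate purity of 95%, 0.97 with cells weighted alike, 0.98 thinned to 1000 UMIs, 0.78 without mitochondrial, ribosomal protein and immunoglobulin UMIs in the total, 1.32 with TMM scaling, 0.81 without the leading gene, 1.31 in CD8-only cells and 0.83 in CD4-only cells. For cycling T cells over naive T cells in the WT tumour library (0.92) it was 0.98 with doublets kept, 0.74 with cells weighted alike, 0.65 thinned to 1000 UMIs, 0.69 without mitochondrial, ribosomal protein and immunoglobulin UMIs in the total, 0.74 with TMM scaling, 0.70 without the leading gene, 1.10 in CD8-only cells and 0.76 in CD4-only cells. For Arg1-positive over Arg1-negative macrophages in the C435A tumour library (1.26) it was 1.79 with cells weighted alike and 1.99 thinned to 1000 UMIs. For Arg1-positive over Arg1-negative macrophages in the WT tumour library (0.88) it was 1.03 with cells weighted alike, 0.80 with TMM scaling and 0.94 without the leading gene.

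Shares of all features were computed only with the filter of 50 UMIs and with totals, so the counts below have none beside them. With a count of 0 set to 3 UMIs, genes with very few UMIs can be called at a minimum of 1 UMI. With a minimum of 1 UMI the counts that moved by over 1.5 times were 1 higher in naive T cells, 2 lower in naive T cells, 7 lower in effector T cells, 9 lower in cycling T cells, 5 higher in C1q macrophages, 4 lower in alveolar macrophages, 1 higher in neutrophils, 3 lower in neutrophils, 5 higher in melanoma cells, 4 lower in cycling T cells over naive T cells, 2 lower in cycling T cells over effector T cells, 20 higher in Arg1-positive over Arg1-negative macrophages and 1 lower in Arg1-positive over Arg1-negative macrophages. With TMM scaling the counts that moved by over 1.5 times were 1 lower in naive T cells, 7 higher in cycling T cells, 1 higher in C1q macrophages, 11 lower in alveolar macrophages and 2 lower in cycling T cells over naive T cells. With a minimum of 200 UMIs the counts that moved by over 1.5 times were 1 lower in cycling T cells, 0 higher in C1q macrophages, 0 lower in C1q macrophages, 0 lower in neutrophils, 1 higher in melanoma cells, 2 higher in effector T cells over naive T cells, 1 lower in effector T cells over naive T cells, 0 lower in cycling T cells over effector T cells and 4 higher in Arg1-positive over Arg1-negative macrophages. Of 795 alternatives for 78 values of single genes, 652 stayed within the interval, 134 moved and 9 changed sign, and in 63 of all of them the value lay under 1.5-fold. The sign changes were Mif (0.28) and Pdk1 (0.24) of effector T cells in CD4-only cells, Pfkl of cycling T cells thinned (0.26), Ndrg1 (-1.37) and Ero1a (-0.83) of melanoma cells weighted alike, and 4 in the WT tumour library. These 4 were Pfkfb3 in effector over naive cells thinned (-1.10), and in cycling over effector cells Tpi1 (-0.0586) and Mif (-0.12) thinned and Pdk1 in CD4-only cells (0.12). The cause was not tested.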

Other observations

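Plasma cells, which stand outside the 7 main classes, had 7 of 19 counted genes higher in the C435A tumour library and 0 lower, where 24.4% of features were higher and 2.18% lower. The median log2 ratio was 0.50 for the counted genes and 0.35 for all counted features. Eno1 had 84.18 and 37.01 CPM there (1.19 [0.89, 1.48]), Slc16a1 18.21 and 8.349 CPM (1.12 [0.50, 1.78]) and Ldha 224.9 and 124.1 CPM (0.86 [0.69, 1.02]). Cycling marker UMIs were at 2332.6 and 1229.5 CPM in these cells. UMIs outside mitochondrial, ribosomal protein and immunoglobulin genes made up 50.97% and 39.96% of the total. The sum of the set was 2853 and 1910 CPM of all UMIs, and 5597 and 4780 CPM of that reduced total. Ratios of single genes were not recomputed on the reduced total. The part of cycling and of immunoglobulin RNA in the difference was not tested.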
